A study of Mus musculus with 2 samples.

Results

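Peaks at the promoters of long noncoding RNA (lncRNA) genes were examined in DNase-seq libraries from the frontal cortex of female B6CASTF1/J mice, F1 hybrids of the B6 and CAST strains, aged 36 days. The labels give 1 group, with no treatment named, and 2 biological replicates that have separate tissue sample records and the same donor label, and the sources used here do not say whether these are 2 animals. A peak was counted as an lncRNA promoter peak when its midpoint lay within 500 bp of a transcription start site (TSS) of a GENCODE M21 gene of type lincRNA, antisense, processed_transcript, bidirectional_promoter_lncRNA or sense_intronic, and more than 2000 bp from every protein-coding TSS, on chromosomes 1 to 19. By this rule 509 of 28969 peaks (1.76%) qualified in replicate 1 and 1062 of 64912 peaks (1.64%) in replicate 2, a mean of 786 ± 391 (SD, n = 2). They were set beside protein-coding promoter peaks, whose midpoint lay within 500 bp of a protein-coding TSS (13813 in replicate 1 and 18159 in replicate 2), and beside distal peaks, more than 2000 bp from every TSS of either kind (11364 and 37608). No other condition exists, so the replicates can only be described: an exact sign test over 2 libraries cannot go below p = 0.5.

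Long noncoding RNAs are transcribed mostly by RNA polymerase II, like messenger RNAs, but are not translated into large proteins. Some act in the nucleus on chromatin or nuclear bodies, some are host transcripts whose introns or exons are processed into small nucleolar RNAs (snoRNAs) or microRNAs (miRNAs), and for others the act of transcription silences neighbouring genes, as at imprinted loci. Many are made in few cell types, brain being rich in them, and their promoters are found as DNase I hypersensitive sites, where the bound transcription machinery displaces nucleosomes and DNase I can cut.

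The sequences of 9 lncRNA promoter peaks show the kinds of site that the results turn on. All are mm10 reference sequence, 5′ to 3′ along the strand of the lncRNA gene, and capitals mark bases inside the footprints (short protected stretches within a peak) that the authors listed for the replicate named. Malat1, a nuclear speckle RNA found in most cells, is shown at chr19:5802601-5802801 (minus strand, replicate 1), and Snhg8, a snoRNA host, at chr3:123508321-123508600 (minus strand, replicate 2). Meg3, maternally expressed from an imprinted cluster, at chr12:109540841-109541080 (plus strand), and Miat, a neuronal nuclear RNA, at chr5:112228781-112229065 (minus strand), had a peak in replicate 2 alone and carry its footprints. Mir124a-1hg, host of the neuronal miRNA miR-124, is shown over the first 300 bases of its strongest replicate 2 peak, chr14:64587641-64587940 (plus strand). Peg13, an imprinted RNA within an intron of a coding gene, is shown at chr15:72809921-72810160 (minus strand), 1700028E10Rik at chr5:151368701-151368960 (plus strand), AC154766.4, whose peak covers a tRNA gene, at chr17:23550241-23550460 (plus strand), and Gm42418, whose peak lies in an annotated ribosomal RNA gene, at chr17:39846781-39846920 (plus strand), all 4 with footprints of replicate 1.
Malat1: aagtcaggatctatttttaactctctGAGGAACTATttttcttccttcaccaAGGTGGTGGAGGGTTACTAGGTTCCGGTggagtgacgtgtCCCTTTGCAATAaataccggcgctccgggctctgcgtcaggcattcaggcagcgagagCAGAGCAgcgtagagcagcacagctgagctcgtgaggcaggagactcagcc
Snhg8: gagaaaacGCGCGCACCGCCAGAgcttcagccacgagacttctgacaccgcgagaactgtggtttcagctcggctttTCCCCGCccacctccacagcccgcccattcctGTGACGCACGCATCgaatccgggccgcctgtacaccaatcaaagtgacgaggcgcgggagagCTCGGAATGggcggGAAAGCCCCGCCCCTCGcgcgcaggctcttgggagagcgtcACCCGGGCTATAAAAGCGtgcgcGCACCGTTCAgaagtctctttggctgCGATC
Meg3: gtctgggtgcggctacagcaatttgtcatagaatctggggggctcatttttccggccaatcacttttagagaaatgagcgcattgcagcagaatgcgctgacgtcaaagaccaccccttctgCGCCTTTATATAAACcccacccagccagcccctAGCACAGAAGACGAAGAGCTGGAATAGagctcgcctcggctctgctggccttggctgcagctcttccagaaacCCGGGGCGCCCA
Miat: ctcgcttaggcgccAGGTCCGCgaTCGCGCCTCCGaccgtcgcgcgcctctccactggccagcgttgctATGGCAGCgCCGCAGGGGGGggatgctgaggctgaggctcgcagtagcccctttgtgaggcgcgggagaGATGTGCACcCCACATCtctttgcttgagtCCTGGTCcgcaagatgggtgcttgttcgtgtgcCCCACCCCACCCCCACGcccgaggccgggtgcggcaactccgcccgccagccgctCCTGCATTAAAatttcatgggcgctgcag
Mir124a-1hg: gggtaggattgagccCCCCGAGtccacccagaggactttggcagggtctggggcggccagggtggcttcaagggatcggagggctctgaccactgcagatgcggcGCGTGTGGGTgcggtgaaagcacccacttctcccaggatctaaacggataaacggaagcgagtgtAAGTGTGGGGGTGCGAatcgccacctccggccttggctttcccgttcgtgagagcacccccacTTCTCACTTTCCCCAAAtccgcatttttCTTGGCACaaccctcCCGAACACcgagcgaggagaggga
Peg13: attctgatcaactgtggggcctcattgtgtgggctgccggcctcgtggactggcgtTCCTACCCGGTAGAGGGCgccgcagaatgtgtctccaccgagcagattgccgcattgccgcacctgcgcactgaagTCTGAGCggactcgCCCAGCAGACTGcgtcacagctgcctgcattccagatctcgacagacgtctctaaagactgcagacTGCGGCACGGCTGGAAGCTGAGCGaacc
1700028E10Rik: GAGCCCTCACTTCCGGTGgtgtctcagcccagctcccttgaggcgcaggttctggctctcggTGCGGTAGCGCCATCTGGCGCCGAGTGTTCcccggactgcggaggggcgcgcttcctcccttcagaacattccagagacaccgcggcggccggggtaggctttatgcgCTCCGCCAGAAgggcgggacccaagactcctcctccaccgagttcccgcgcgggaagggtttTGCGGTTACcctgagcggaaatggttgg
AC154766.4: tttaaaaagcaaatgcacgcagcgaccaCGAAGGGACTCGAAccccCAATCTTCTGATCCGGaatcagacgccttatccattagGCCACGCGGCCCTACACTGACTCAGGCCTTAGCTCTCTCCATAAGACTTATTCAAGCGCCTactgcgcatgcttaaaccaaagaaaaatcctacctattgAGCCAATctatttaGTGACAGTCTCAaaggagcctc
Gm42418: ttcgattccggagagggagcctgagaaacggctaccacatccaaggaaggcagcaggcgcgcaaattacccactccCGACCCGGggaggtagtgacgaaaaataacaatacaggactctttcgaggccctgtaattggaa

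The mature miRNAs made from 3 of the host genes with peaks in replicate 2 alone are given from RefSeq (GRCm38.p6), with the seed (bases 2 to 8) in capitals. Mir9-3hg and C130071C03Rik hold hairpins for the same miR-9, and 1700016P03Rik holds the neighbouring Mir212 and Mir132 hairpins, whose 3p arms share the seed AACAGUC.
mmu-miR-9-5p: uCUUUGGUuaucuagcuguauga
mmu-miR-132-3p: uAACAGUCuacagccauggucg
mmu-miR-212-3p: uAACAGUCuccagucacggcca

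The peak signal is a density that the authors normalized for read depth. Its values were whole multiples (within 0.05 steps) of 0.01178 in replicate 1 and of 0.009709 in replicate 2, and the median lncRNA promoter peak stood 114 and 135 such steps high. The depth behind a value is known here only through these steps, since library totals were not analysed. The tissue label was checked on protein-coding marker genes: a promoter peak was found at 3 of 4 excitatory neuron genes in both replicates, and at 0 of 3 hindbrain and spinal cord genes in both. Tbr1 had 3 promoter peaks in replicate 1 and 4 in replicate 2, and Slc17a7 had 0 in both. Of 9 marker genes of inhibitory neurons and glia, 2 had one in replicate 1 and 5 in replicate 2. Over all 20807 protein-coding genes, 51.6% had one in replicate 1 and 60.7% in replicate 2, so these few genes are a weak check. In this bulk tissue fewer cells with an open site and a site less open in each cell cannot be told apart.

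Of 7430 lncRNA genes with a TSS where such a peak could lie, 448 had one in replicate 1 and 901 in replicate 2. Both replicates had one at 441 genes (5.94%), replicate 2 alone at 460 (6.19%) and replicate 1 alone at 7. The same count over 20807 protein-coding genes, whose promoters are not limited by distance to other genes, was 51.4% in both replicates. Long intergenic RNA genes (lincRNA) gave most of the peaks, 340 in replicate 1 and 695 in replicate 2. Antisense genes, which overlap a coding gene on the other strand, gave 78 and 199 peaks, and processed_transcript genes gave 87 and 151. Sense_intronic genes gave 4 and 16 peaks, and the only bidirectional_promoter_lncRNA peak lay at Gm20501 in replicate 2, with a signal of 1.92.

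The gene types differed in how many of their genes were accessible. Among processed_transcript genes 73 of 489 had a peak in both replicates, or 14.9% (95% Wilson interval 12 to 18.4%). The share was 6.12% (5.47 to 6.83%) for lincRNA genes and 3.82% (3.04 to 4.80%) for antisense genes. Sense_intronic genes had 4 of 291, or 1.37% (0.536 to 3.48%). These intervals, like the others given for shares, cover counting error only. The processed_transcript peaks were also the strongest of the 3 larger types in each replicate, with medians of 1.56 in replicate 1 and 1.74 in replicate 2. The lincRNA peaks had 1.26 in both, and the antisense peaks had 1.45 and 1.31.

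Most of the genes carried a single peak: 370 of 448 in replicate 1 and 743 of 901 in replicate 2. The genes with the most peaks shared by both replicates were Mir99ahg and 6530411M01Rik with 4 each, and 3110039I08Rik, A330023F24Rik and C130026L21Rik with 3 each. Mir99ahg hosts miR-99a, let-7c and miR-125b, and its shared peaks stood at TSSs spread along the gene. Their signals were 0.789, 1.21, 1.38 and 1.19 in replicate 1, and the partners had 1.20, 2.04, 1.94 and 2.37 in replicate 2. The 6530411M01Rik peaks crowded around its start instead, and 3 of the 4 in replicate 1 fell on a single replicate 2 peak. The C130026L21Rik peaks of 0.801 and 1.23 in replicate 1 also fell on a single replicate 2 peak, of 1.20. The replicate 2 partner of the A330023F24Rik peak of 1.25 stood nearer to the TSS of Gm16897. Peaks could overlap within a list: 16 of the 509 and 43 of the 1062 overlapped another lncRNA promoter peak.

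The peaks lay slightly upstream of the TSS. The midpoint was a median of 29.0 bp upstream in replicate 1 (quartiles −128 and 91.0 bp) and 26.5 bp upstream in replicate 2 (−133 and 117 bp). It was upstream in 59.7% and 58.5% of the peaks and within 150 bp of the TSS in 58.0% and 56.1%. The closest protein-coding TSS was a median of 36.8 kb away in replicate 1 and 35.9 kb in replicate 2, and more than 50 kb away for 42.0% and 41.3%. The body of a protein-coding gene held 69 of the 509 peaks (13.6%) and 194 of the 1062 (18.3%). For 56 and 162 of these the coding gene ran on the strand opposite to the lncRNA only, and 25 and 34 peaks had an lncRNA TSS on each strand within reach. By chromosome, lncRNA promoter peaks made up the largest share of all peaks on chromosome 17 (3.26% in replicate 1 and 2.70% in replicate 2) and chromosome 13 (3.01% and 2.56%). The smallest share was 0.994% on chromosome 8 in replicate 1 and 1.22% on chromosome 11 in replicate 2.

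The signal of lncRNA promoter peaks lay between those of protein-coding promoter and distal peaks in both replicates. In replicate 1 the median was 1.34 for lncRNA promoter peaks, against 1.81 for protein-coding promoter peaks, 1.12 for distal peaks and 1.35 for all peaks. In replicate 2 it was 1.32 for lncRNA promoter peaks, against 2.27, 0.990 and 1.18. The log2 ratio of medians over protein-coding promoter peaks was −0.43 in replicate 1 and −0.79 in replicate 2 (mean −0.61 ± 0.25, SD, n = 2), or 0.740-fold and 0.579-fold. Over distal peaks it was 0.26 and 0.41 (0.34 ± 0.10), or 1.20-fold and 1.33-fold. The classes overlapped widely: the middle 50% of lncRNA promoter peaks ran from 0.942 to 2.03 in replicate 1 and from 0.825 to 2.23 in replicate 2, and the lower quartile of protein-coding promoter peaks, 1.13 and 1.17, fell inside it. Their median width was 207 and 220 bp, against 243 and 260 bp for protein-coding promoter peaks and 160 and 182 bp for distal peaks.

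**Figure D1:**
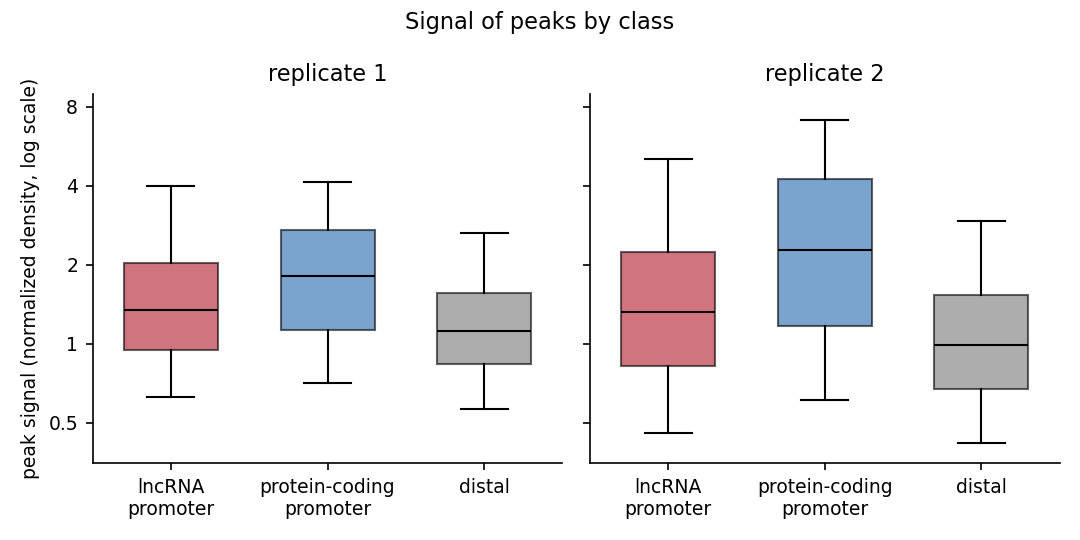
Signal of peaks in each class, on a log axis, for replicate 1 (left) and replicate 2 (right); boxes span the quartiles with the median as a line, and whiskers reach the 5th and 95th percentiles. In both panels the lncRNA promoter box, with medians of 1.34 and 1.32, sits below the protein-coding promoter box and above the distal box, and all boxes overlap.

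A second deposited table, which lists positions whose cleavage rate reached a false discovery rate (FDR) of 0.05 or less, was read around all gene starts, with or without a peak. Of the positions within 2000 bp of 6621 lncRNA gene starts that lie more than 4000 bp from a coding TSS, the listed share was highest just upstream of the start. It reached 5.69% in the bin from −25 to 0 bp in replicate 1 and 11% in the bin from −50 to −25 bp in replicate 2. At the outer 200 bp of the window it was 0.761% and 2.05%, so the rise was 7.48-fold and 5.35-fold. Around 20807 protein-coding gene starts the highest share was 47.3% and 55.1%, or 30.6-fold and 15-fold over the edges. The rise at lncRNA starts was thus lower than at coding starts in both level and fold, as an average over genes with and without a peak.

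**Figure D2:**
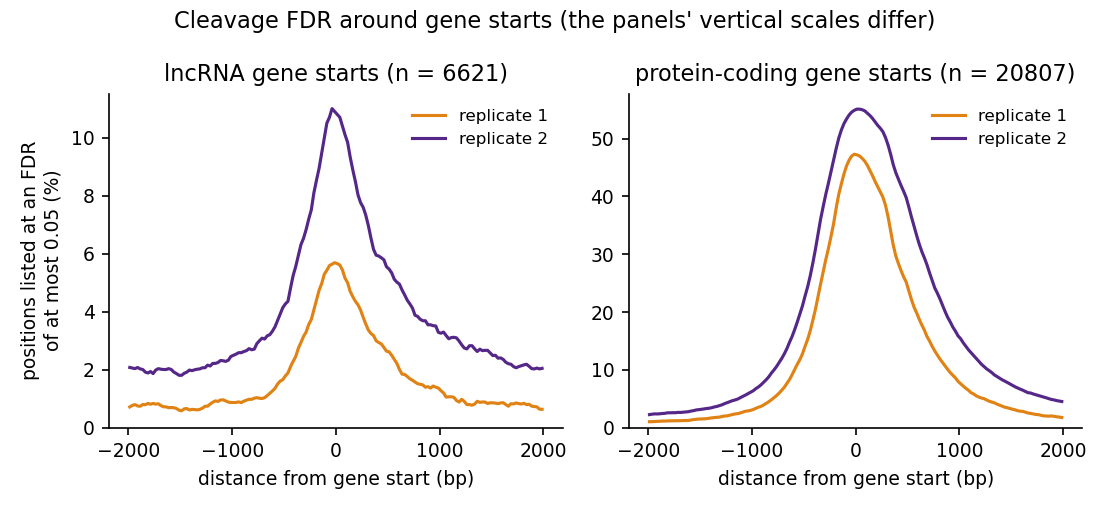
Share of positions listed at an FDR of at most 0.05 by distance from the gene start (bp, positive downstream), in 25 bp bins, for lncRNA gene starts (left) and protein-coding gene starts (right), 1 line per replicate; the vertical scales differ. The lncRNA curves peak at 5.69% in replicate 1 and 11% in replicate 2 beside the start, and the protein-coding curves at 47.3% and 55.1%.

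CpG content split the lncRNA promoters into a CpG-rich and a CpG-poor part. The CpG ratio, observed over expected CpG in the 300 bp about the midpoint, was at least 0.6 in 227 lncRNA promoter peaks of replicate 1, or 44.6% (40.3 to 48.9%), against 49.7% of all peaks. In replicate 2 it was so in 315, or 29.7% (27.0 to 32.5%), against 28.9% of all peaks. Both shares were near those of all peaks, which pool unlike classes: protein-coding promoter peaks reached 82.6% and 74.4%, and distal peaks 11.4% and 6.46%. CpG-rich lncRNA promoter peaks had a median signal of 1.72 in replicate 1 and 2.07 in replicate 2, and CpG-poor ones 1.15 and 1.17. Among CpG-poor peaks the lncRNA and protein-coding promoters were close, with a log2 ratio of −0.09 in replicate 1 and −0.10 in replicate 2 (mean −0.10 ± 0.01, SD, n = 2). Among CpG-rich peaks the ratio was −0.20 and −0.49 (−0.35 ± 0.21). Over distal peaks the ratio was positive in each class, 0.27 and 0.55 for CpG-rich and 0.08 and 0.26 for CpG-poor peaks. Repeat sequence covered more than 50% of 7 lncRNA promoter peaks (1.38%) in replicate 1 and 13 (1.22%) in replicate 2, against 1.19% and 1.53% of all peaks, and 61.5% and 52.2% held none, against 62.5% and 55.6%.

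Footprints were listed in 421 of the 509 lncRNA promoter peaks (82.7%, 79.2 to 85.7%) in replicate 1, against 83.3% of all peaks. In replicate 2 they were listed in 909 of the 1062 (85.6%, 83.4 to 87.6%), against 83.2% of all peaks. The shares were close to those of all peaks. The density was 10.9 footprints per kb of lncRNA promoter peak in replicate 1 and 11.5 in replicate 2 (mean 11.2 ± 0.459, SD, n = 2), against 12.1 and 13.1 for protein-coding promoter peaks and 11.3 and 11.1 for distal peaks. Of the footprints in shared lncRNA promoter peaks, 63.5% (60.8 to 66.1%) in replicate 1 shared 1 bp or more with a footprint of the other replicate, against 64.2% over all shared peaks. In replicate 2 it was 44.1% (41.8 to 46.4%), against 45.7%. Both shares were close to those over all shared peaks. In the Malat1 sequence above, 56 of the 57 capital bases were footprinted in both replicates, and in AC154766.4 95 of 110, but in Miat 14 of 89.

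Nearly all lncRNA promoter peaks of replicate 1 were found again in replicate 2, and fewer the other way round. In replicate 1, 483 of 509 (94.9%, 92.6 to 96.5%) had a partner, meaning a replicate 2 peak that shares 1 bp or more, against 92.5% of all peaks. In replicate 2, 480 of 1062 (45.2%, 42.2 to 48.2%) had a partner, against 40.7% of all peaks. Protein-coding promoter peaks had 91.9% and 68.3%, and distal peaks 94.6% and 28.4%. When the replicate 2 list was shortened by signal to the length of the replicate 1 list, 77.4% (73.6 to 80.8%) of the lncRNA promoter peaks of replicate 1 and 73.2% (69.3 to 76.8%) of those of replicate 2 were shared. All peaks then had 75.9% and 74.3%, so the lncRNA shares did not differ from them beyond counting error. Protein-coding promoter peaks had 83.0% and 87.2% in the same setting, and distal peaks 70.7% and 63.7%.

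Signal went with sharing in every class. With the peaks of each replicate split into 4 bins of equal size by signal, the shared part of lncRNA promoter peaks in replicate 2 was 7.59%, 19.4%, 53.4% and 86.9% from the lowest bin to the highest. Protein-coding promoter peaks had 9.49%, 27.0%, 58.2% and 95.3%, and distal peaks 3.75%, 15.5%, 45.0% and 85.4%. In replicate 1 the lncRNA shares were 88.2%, 95.3%, 97.2% and 99.1%. In the lowest bin of replicate 1 the 88.2% (81.4 to 92.7%) of lncRNA promoter peaks was close to the 87.8% of distal peaks and above the 69.5% (67.6 to 71.5%) of protein-coding promoter peaks.

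**Figure D3:**
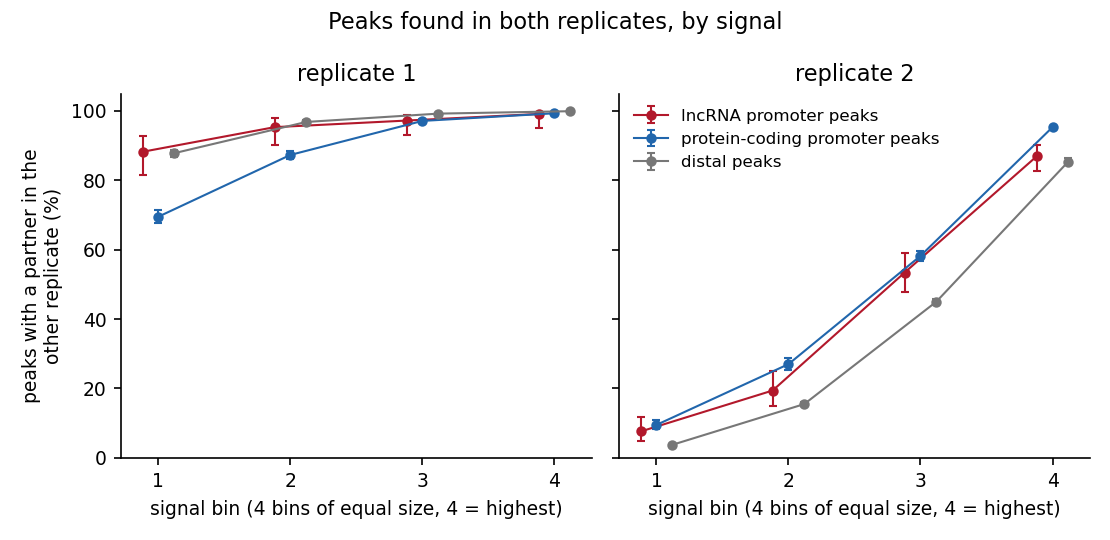
Share of peaks with a partner in the other replicate by signal bin (1 lowest, 4 highest, bins of equal size over all peaks of the replicate), for replicate 1 (left) and replicate 2 (right); points are shares by class and bars are 95% Wilson intervals. In replicate 2 the lncRNA promoter line climbs through 7.59%, 19.4%, 53.4% and 86.9%, between or near the other classes.

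The lncRNA promoter peaks seen in replicate 2 alone differed in make-up from the shared ones, and the other classes differed likewise in signal and CpG content. The 480 with a partner had a median signal of 2.20, 13.3 footprints per kb and a CpG ratio of at least 0.6 in 41.9%. The 582 without a partner had 0.932, 9.45 per kb and 19.6%. Over all peaks of replicate 2 the median signal was 2.32 with a partner and 0.854 without. Read the other way, 63.8% (58.4 to 68.9%) of the CpG-rich lncRNA promoter peaks of replicate 2 were shared, against 37.3% (34.0 to 40.9%) of the CpG-poor ones. Protein-coding promoter peaks had 76.8% against 43.6%, and distal peaks 50.2% against 26.9%, so this was not particular to lncRNA promoters. The next counts are for lncRNA promoter peaks again. Within each of the 4 signal bins the gap was smaller. In the highest bin it was 142 of 157 (90.4%) against 111 of 134 (82.8%). In the lower bins, from the lowest up, it was 16.7% against 5.85%, 24.5% against 18.1%, and 56.2% against 52.6%. Of the 582, 324 (55.7%) held a position at an FDR of 0.05 or less in replicate 1 and 41 (7.04%) held one at 0.001 or less, against 50.5% and 6.11% of all replicate 2 peaks without a partner, so the lncRNA shares were close to those of all such peaks. In replicate 1 the pattern of CpG content did not hold: the 26 peaks without a partner were CpG-rich in 57.7%, against 43.9% of the 483 with one, and had a median signal of 0.842 against 1.38.

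At peaks found in both, the signal was higher in replicate 2 almost throughout. It was higher at 468 of the 483 shared lncRNA promoter peaks of replicate 1 (96.9%), with a median log2 ratio of replicate 2 over replicate 1 of 0.65 (quartiles 0.45 and 0.87), or 1.57-fold. The median was 0.76 at protein-coding promoter peaks and 0.61 at distal peaks, so the shift ran through all classes. The farthest below it was Snhg14, a paternally expressed host of snoRNA clusters that is antisense to Ube3a, at chr7:59706361-59706620, which had 0.730 in replicate 1 and 0.291 in replicate 2 (log2 ratio −1.33). The next lowest was Gm35667 with 1.10 and 0.816 (−0.43). At the other end stood AC126937.1 with 1.10 and 3.45 (1.65), Gm42109 with 1.00 and 2.82 (1.49) and Gm16087 with 0.860 and 2.40 (1.48). The pair of peaks need not have the same borders, so a ratio can set densities over unlike widths side by side.

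**Figure D4:**
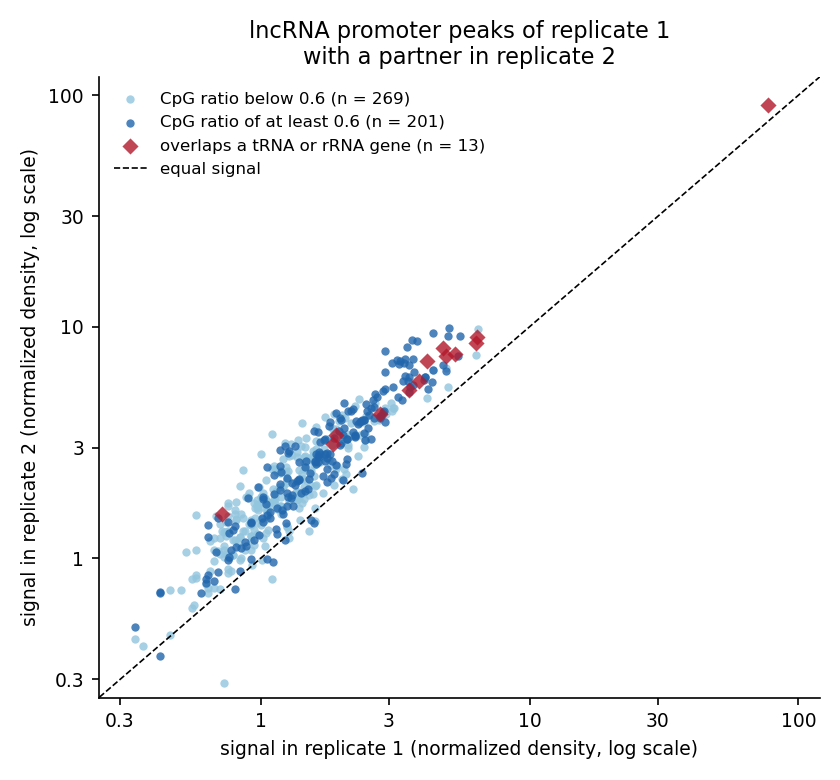
Signal in replicate 1 (horizontal) and replicate 2 (vertical) of the 483 lncRNA promoter peaks of replicate 1 with a partner, both on log axes; each point is a peak, blue shades give the CpG ratio, red diamonds mark overlap with a tRNA or rRNA gene, and the dashed line is equal signal. Of these, 468 lie above the line, the point far below it is Snhg14, and the diamond at the top right is Gm42418 with 76.9 and 91.1.

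The highest lncRNA promoter peaks were partly sites of other RNA genes. Gm42418 reached 76.9 in replicate 1 and 91.1 in replicate 2, and its peak lies inside the annotated rRNA gene CT010467.1. Ribosomal RNA genes exist as many near-identical copies, so this value is uncertain. The next highest were Gm15408 with 6.46 and 9.76, B230208H11Rik with 6.39 and 9.04, Gm12762 with 5.01 and 9.89, and AC154766.4 with 6.30 and 8.51. They were followed by Tmem250-ps with 5.53 and 9.17, 1700028E10Rik with 4.97 and 9.11, D330050G23Rik with 6.33 and 7.53, Gm10433 with 4.38 and 9.44, and Gm45605 with 5.30 and 7.66. The peaks of B230208H11Rik, AC154766.4 and Gm45605 cover tRNA genes for leucine, arginine and tryptophan.

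Transfer RNA genes are transcribed by RNA polymerase III from promoters inside the gene, and 12 lncRNA promoter peaks (2.36%) in replicate 1 and 13 (1.22%) in replicate 2 overlapped one in the RefSeq annotation. Among protein-coding promoter peaks 0.181% and 0.132% did, and among distal peaks 1.10% and 0.404%. These lncRNA promoter peaks had a median signal of 4.01 in replicate 1 (range 0.719 to 6.39) and 5.81 in replicate 2 (1.55 to 9.04), and all had a partner. The highest signal bin held 9 of the 12 and 12 of the 13. They included Gm11205 with 4.76 and 8.09, Gm11527 with 4.91 and 7.45, and Gm16170 with 4.14 and 7.10. Which gene's promoter such a peak reflects cannot be told apart where both starts lie under it. Without the peaks over tRNA or rRNA genes, an alternative chosen after seeing the data, the mean log2 ratio over protein-coding promoter peaks was −0.64 and that over distal peaks 0.31.

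Hairpins of miRNAs overlapped 1 lncRNA promoter peak (0.196%) in replicate 1 and 7 (0.659%) in replicate 2. Among protein-coding promoter peaks the shares were 0.427% and 0.352%, and among distal peaks 0.123% and 0.0745%. A330076H08Rik, over Mir344g, was the peak present in both, with 1.11 in replicate 1 and 2.00 in replicate 2. The replicate 2 peaks included Gm27032 over Mir124a-3 with 0.806 and Gm26871, which overlapped part of Mir137, with 1.34. Those of A430106G13Rik overlapped part of Mir181a-1 with 0.922 and part of Mir181b-1 with 0.641. Of these, miR-124 and miR-137 are enriched in neurons. The peak of C920006O11Rik overlapped Rn7sk, the RNA that holds the elongation factor P-TEFb inactive, with 1.41 and 1.92. That of Gm28872 overlapped Rnu11, a minor spliceosome RNA, with 1.64 and 2.11.

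Listed lncRNAs that are expressed in most tissues were mostly accessible in both replicates. Of 10 that the annotation places among the 5 gene types on chromosomes 1 to 19, 6 had a promoter peak in both, 1 had it in replicate 2 alone, and 3 had peaks only within 2000 bp of a coding TSS, where they could not be assigned (Tug1, Mir22hg and Crnde). Of all lncRNA genes 5.94% had a peak in both, but the list names well-studied genes only. Malat1 stood at 4.04 in replicate 1 and 5.88 in replicate 2, and its neighbour Neat1, the scaffold of paraspeckles, had 2.45 and 3.26 at a peak whose midpoint lies nearer to the TSS of the antisense gene Frmd8os. 1810026B05Rik, named Chaserr in RefSeq and a neighbour of the chromatin remodeller gene Chd2, was the highest of the list in replicate 2 with 3.22 and 7.21. Those values are densities over peaks of unlike width, 380 bp in replicate 1 and 60 bp in replicate 2. Dleu2, host of the miR-15a and miR-16 precursors, had 2.38 and 3.96 at a peak nearer to the TSS of Gm27017, while the highest peak nearest to its own TSSs had 1.46 and 1.96. Lncpint had 2 peaks in replicate 1 (1.5 and 1.72) and 3 in replicate 2 (3.48, 2.00 and 2.76), of which those of 1.72 and 2.76 stood nearer to the TSS of 2210408F21Rik. Pvt1, which lies beside Myc, had 1.32 and 1.68. 2900097C17Rik, named Norad in RefSeq and known to bind Pumilio proteins, had a peak of 2.05 in replicate 2 alone.

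Among snoRNA host genes, a promoter peak was present in both replicates at 10 of 18 and in a single replicate at 0, or at 9 and, in replicate 1, at 1 (Snhg14) with replicate 2 shortened as above. Of the others, 7, among them Snhg1, Gas5 and Zfas1, had peaks only beside a coding TSS. Rian was the gene of the list with no peak. The list's share in both replicates can be set against the 5.94% of all lncRNA genes, but the list names well-studied genes only. With replicate 2 shortened, 372 of all lncRNA genes had a promoter peak in both. Snhg15 had 3.53 in replicate 1 and 5.83 in replicate 2, Snhg8 3.42 and 7.00, Snhg5 2.57 and 4.48, and Snhg12 2.34 and 3.87. Snhg6 had 1.97 and 3.10, Dancr 1.96 and 3.54, Snhg17 1.65 and 2.74, Epb41l4aos 1.61 and 2.83, and Snhg20 1.39 and 2.62. All of these were higher in replicate 2, as most shared peaks were, and Snhg14 was the exception. The medians of the list's highest peaks were 1.96 and 3.32.

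Of 12 host genes of miRNAs, 3 had a promoter peak in both, 4 in replicate 2 alone, 1 (Mir22hg) only beside a coding TSS, and 4 none: Mir17hg, Mir155hg and Mir142hg, known from dividing and blood cells, and Mirg of the imprinted Dlk1-Dio3 cluster. Mir670hg had 2.92 in replicate 1 and 4.21 in replicate 2. Mir124a-1hg had 0 peaks in replicate 1 and 5 in replicate 2, with signals of 1.33, 1.47, 2.43, 1.20 and 1.67, and none of the 5 held a position listed at any FDR in replicate 1. Its relative Mir124-2hg had 2 peaks in replicate 1 (1.14 and 1.25) and 4 in replicate 2 (1.95, 0.942, 1.68 and 1.17). Both listed hosts of miR-9, a miRNA of neural progenitors and neurons, lacked a peak in replicate 1: Mir9-3hg had 3 in replicate 2 (2.43, 1.12 and 1.23) and C130071C03Rik had 4 (2.83, 0.981, 1.78 and 1.05). 1700016P03Rik, host of the activity-regulated miR-212 and miR-132, had 2 in replicate 2 (1.84 and 1.49). Over all lncRNA genes with a promoter peak, 460 of 908 (50.7%) had it in replicate 2 alone, so with the full lists the count for miRNA host genes was near the general one. The 4 genes with a peak in replicate 2 alone kept it when the replicate 2 list was shortened to the length of the replicate 1 list, where the lowest signal kept was 1.31. In that setting 3 host genes had a peak in both. Of the 491 lncRNA genes with a peak in replicate 2 then, 372 also had one in replicate 1, a larger part than among the host genes.

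Of 21 annotated lncRNAs known from neurons and neural development, 1 was accessible in both replicates, 6 in replicate 2 alone, 3 only beside a coding TSS, 9 had none, and 2 had no TSS far enough from coding genes. Over all lncRNA genes with a TSS far enough from coding genes, 5.94% had a peak in both and 6.19% in replicate 2 alone. The neural count in both was near the general one, but the 6 of 21 in replicate 2 alone was above it. Of the 7 neural genes with a peak, 6 had it in replicate 2 alone, against 460 of 908 (50.7%) of all lncRNA genes with one. The list names well-studied genes only. The gene with a peak in both replicates was Peg13, with 2.09 in replicate 1 and, at 2 peaks, 2.68 and 2.03 in replicate 2. Miat had 2.49 in replicate 2, and Meg3 2.21. At both, replicate 1 held a position at an FDR of 0.05 or less but none at 0.001 or less, and it listed 3 footprints within the Miat sequence and 2 within that of Meg3. Pantr1 and Pantr2, beside the cortical regulator gene Pou3f3, had 1.16 and, at 2 peaks, 1.41 and 1.14 in replicate 2. Rmst, which partners with Sox2 in neuronal differentiation, had 0.728 and 0.515 there. Among those without a peak in either replicate were Sox2ot, Dlx6os1, Dlx1as, Six3os1 and Otx2os1, which are neighbours of the patterning genes they are named after. With replicate 2 shortened, Miat, Meg3, Pantr2 and C130071C03Rik, which is also among the miRNA host genes, kept a peak in replicate 2 alone. In that setting 1 neural gene had a peak in both. Of the 491 lncRNA genes with a peak in replicate 2 then, 372 also had one in replicate 1, a larger part than among the neural genes. The replicates also differed at the coding markers of inhibitory neurons and glia given above, with 2 of 9 in replicate 1 and 5 of 9 in replicate 2. Of all protein-coding genes, 51.6% and 60.7% had a promoter peak. The part of the marker difference in the counts for the neural genes was not tested.

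Among 12 imprinted lncRNAs, both replicates had a promoter peak at 4, replicate 2 alone at 3, and 5 had none. With replicate 2 shortened, both had one at 3, replicate 2 alone at 1 (Meg3) and replicate 1 alone at 1 (Snhg14). Of all lncRNA genes, 448 had one in replicate 1 and 491 in replicate 2 in that setting, 372 of them in both. Without shortening, all lncRNA genes had 5.94% in both and 6.19% in replicate 2 alone, and this list too names well-studied genes only. Kcnq1ot1, the paternal antisense RNA of the Kcnq1 cluster, had 1.85 in replicate 1 and 3.64 in replicate 2, and A330076H08Rik had 1.11 and 2.00. Peg13 and Snhg14 had the values given above. Airn, antisense to Igf2r, had 0.835 and Nespas, antisense to the Nesp transcript of the Gnas locus, 0.961, both in replicate 2 alone like Meg3. H19, Rian, Mirg, Nctc1 and Igf2os had no peak. The deposited peak lists do not separate the B6 and CAST alleles, so no allele can be assigned. For lncRNAs of other tissues and of body patterning, 17 of 20, Hotair, Hottip, Fendrr and Mhrt among them, had no peak in either replicate. Of all 7430 lncRNA genes with a TSS far enough from coding genes, 6522 (87.8%) had no lncRNA promoter peak in either replicate. That count includes genes with peaks only beside a coding TSS, which the 17 leave out. The 20 also include 1 gene with no TSS far enough from coding genes, so the shares can be compared only roughly. Foxd2os had peaks only beside a coding TSS. Gm14005, named Morrbid in RefSeq and known from myeloid cells, had a peak of 0.689 in replicate 2 alone, below the median of that list.

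**Figure D5:**
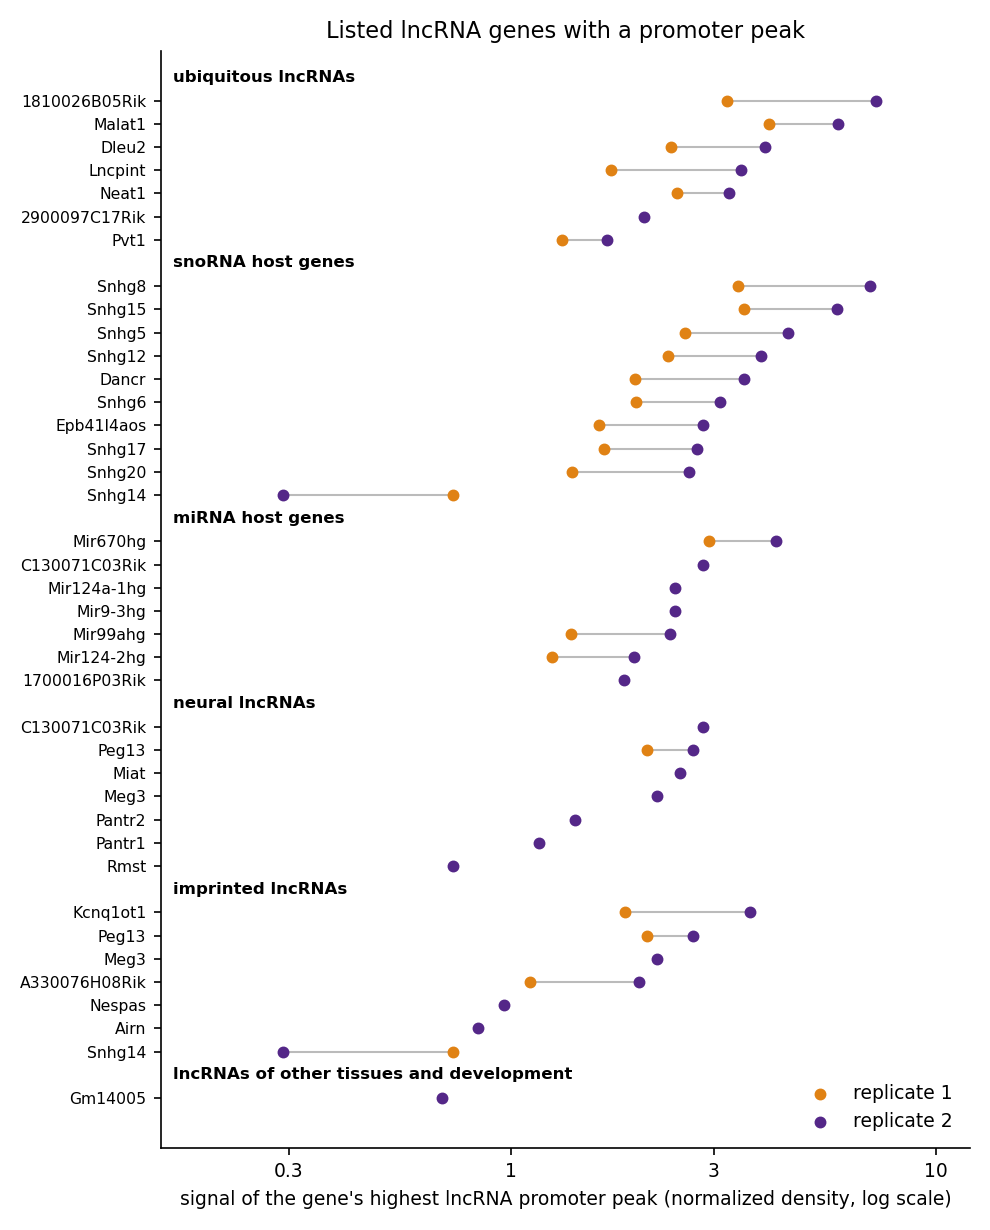
Signal of the highest lncRNA promoter peak of each listed gene (log axis) in replicate 1 (orange) and replicate 2 (purple), grouped by list; a gene without an orange point had a peak in replicate 2 alone, and genes on 2 lists appear under both. The ubiquitous and snoRNA host genes have mostly paired points, with replicate 2 to the right except at Snhg14, while the neural list has a pair at Peg13 only.

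Some strong lncRNA promoter peaks lacked a partner. In replicate 1 the highest were 1700012D14Rik with 2.39, Gm45605 with 1.51 and Gm11527 with 1.43, the last 2 beside a shared peak of the same gene that covers a tRNA gene. In replicate 2 they were Gm37494 with 5.28, 4833417C18Rik with 5.08 and Zfhx2os, antisense to Zfhx2, with 3.55. The Gm37494 and 4833417C18Rik peaks each held a position at an FDR of 0.001 or less in replicate 1, though the peak list had no peak there, and the Zfhx2os peak held one at 0.05 or less.

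Exact matches to 13 short consensus motifs were counted on either strand of each peak. A match is a string of letters and not a bound site. The GC box GGGCGGG of SP and KLF factors was in 20.2% (17 to 23.9%) of lncRNA promoter peaks in replicate 1 and 15.6% (13.6 to 17.9%) in replicate 2, against 40.4% and 40.5% of protein-coding promoter peaks and 5.38% and 4.24% of distal peaks. The ETS motif CCGGAAG, in 7.47% and 6.12%, lay likewise between 16.2% and 13.7% of protein-coding promoter and 1.97% and 1.54% of distal peaks. The NFY motif CCAAT was in 26.1% and 26.4% of lncRNA promoter peaks, against 30.9% and 29.5% of protein-coding promoter peaks, and 17.8% and 20% of distal peaks. Motifs typical of distal sites were intermediate too: the AP-1 motif TGANTCA was in 6.68% and 11.1%, against 3.18% and 4.09% of protein-coding promoter and 7.76% and 13.3% of distal peaks. The neuronal E-box CAGATGG was in 6.09% and 6.78%, against 2.90% and 3.74%, and 10.7% and 11.9%. The YY1 motif AAGATGGCG was in 0.982% and 0.565% of lncRNA promoter peaks, against 3.46% and 2.79% of protein-coding promoter and 0.458% and 0.279% of distal peaks.

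Some motifs had shares of peaks outside those of the other classes, whose peaks differ in width. The RFX motif GTTGCCATG was in 1.96% (1.07 to 3.58%) of lncRNA promoter peaks in replicate 1 and 2.26% (1.52 to 3.34%) in replicate 2, against 0.883% and 0.859% of protein-coding promoter and 0.871% and 1.11% of distal peaks. The MEF2 motif TAAAAATAG was in 0.982% (0.420 to 2.28%) and 1.13% (0.648 to 1.96%), against 0.130% and 0.198%, and 0.431% and 0.657%. These rest on 10 and 24 peaks for RFX and on 5 and 12 for MEF2. The TATA box TATAAA was in 4.32% (2.87 to 6.46%) and 6.50% (5.17 to 8.14%), against 2.95% and 3.29% of protein-coding promoter and 4.03% and 5.97% of distal peaks. Per kb of peak its matches were between the other classes. They numbered 0.201 and 0.284, against 0.117 and 0.126 in protein-coding promoter and 0.260 and 0.347 in distal peaks. The CTCF core string AGGGGGCGC, in 1.57% (0.799 to 3.07%) and 1.32% (0.787 to 2.20%), was less frequent than in protein-coding promoter peaks (2.50% and 2.76%) and distal peaks (3.72% and 1.86%). The intervals of the MEF2 motif, the TATA box and this CTCF string each include the share of another class in both replicates. The NRF1 motif GCGCATGCG was in 1.38% and 1.32% of lncRNA promoter peaks, the CRE TGACGTCA in 1.96% and 2.07%, and the other CTCF core string AGGTGGCAG in 2.75% and 1.98%, all between the shares of the other classes. In replicate 2, 124 of the 166 lncRNA promoter peaks with a GC box (74.7%) were shared, against 356 of the 896 without (39.7%), and 64.5% against 23.2% were CpG-rich.

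In the sequences above, the letters of several motifs can be read, with positions counted from 1 at the 5′ end of each sequence. Snhg8 holds the GC box on the opposite strand at bases 80 to 86, 97 to 103 and 192 to 198 and on the printed strand at 180 to 186. Its TATA box at bases 235 to 240 lies in a footprint. Meg3 holds the CRE at bases 99 to 106, outside the footprints, and the TATA box at 131 to 136, inside one. 1700028E10Rik holds the ETS motif on the opposite strand at bases 10 to 16, in a footprint. Malat1 holds the MEF2 motif on the opposite strand at bases 11 to 19, outside the footprints. None of the 13 strings occurs in the Miat, Peg13 or Mir124a-1hg sequences.

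Peaks lay on both sides of the rule's limits. In the outermost 100 bp inside the 500 bp limit to an lncRNA TSS lay 45 peaks in replicate 1 and 118 in replicate 2, with median signals of 1.37 and 1.29. In the first 100 bp outside it lay 36 and 104, with 1.13 and 0.976. In the 500 bp just beyond the 2000 bp limit to a coding TSS lay 13 and 29 lncRNA promoter peaks, with medians of 1.31 and 1.33. In the 500 bp just short of that limit lay 17 and 43 peaks that the rule left out, with 1.58 and 1.26.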

How the data were processed

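DNase-seq was analysed from the files that the authors deposited for 2 libraries of frontal cortex of female mice aged 36 days, on the build mm10 per the labels. For each library these are 2 peak lists, a footprint list and a table of cleavage FDRs. Each file comes from alignments of its own library, per the listing that the authors deposited. Aligner and callers: not given in the sources used here. As signal the authors deposited a density per peak, normalized for read depth, which orders the peaks of a list. At shared peaks of all classes it was mostly higher in replicate 2, so the values of a site are not directly comparable between replicates. The p-value columns that the authors deposited hold an FDR of at most 0.05 per interval in the cleavage table, and 0.01 in every row of the footprint list. Because the cleavage table lists no rates, the profile around gene starts uses the share of listed positions and not the mean rate first planned.

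The list with fewer rows per library was the main list (28969 and 64912 peaks on chromosomes 1 to 19), and the longer list (54602 and 114674) an alternative. TSSs came from GENCODE M21, sequence and tRNA genes from the RefSeq annotation of GRCm38.p6, the same build. A partner is a peak of the other replicate that overlaps by at least 1 bp. CpG ratios use 300 bp about the midpoint, repeats the soft-masked letters, and intervals for shares are 95% Wilson intervals that cover counting error only. Peaks are not replicates, so classes were compared within each replicate and no test was run. The code for overlaps and for the distance to the nearest TSS was tested on simulated peaks. Python 3.11.15, numpy 2.4.6, pandas 2.3.3, pysam 0.24.0, scipy 1.17.1 and matplotlib 3.10.9 were used.

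The peaks and the 6 gene lists were chosen with earlier results of these data known. Genes named are those of the lists with a peak, the 10 with the highest shared peak, the 5 with the most shared peaks, the 3 highest peaks without a partner in each replicate, the highest shared peak per gene type, and the ends of the replicate ratio. Examples of overlap with other RNA genes, and the RNA gene alternative, were chosen after seeing the data. Chromosomes X and Y are outside the rule. Some of the marker genes chosen to check the tissue label are not reported here and were left out of the marker counts.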

Additional observations from a re-analysis of the deposited data

Results flagged for a closer look

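On chromosome X, which the rule leaves out, the same distances gave 18 lncRNA promoter peaks among 723 peaks in replicate 1 and 30 among 1583 in replicate 2, a signal outside the peaks described above. They include genes of the X inactivation centre. Ftx, an activator of Xist, had 3 peaks in each replicate, with signals of 0.766, 1.59 and 2.98 in replicate 1 and 1.45, 2.94 and 5.49 in replicate 2. Jpx, another activator, had 1.11 and 1.5 in replicate 1 and 1.74 and 2.17 in replicate 2. Xist, the RNA that coats the inactive X chromosome in females, had a peak of 1.16 in replicate 2 alone. Firre, a nuclear organisation RNA, had 1.45 in replicate 1, and 0.476 and 1.93 in replicate 2.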

How the results depend on the processing

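Across 13 alternatives, 66 values were recomputed: 59 kept their direction and moved by less than the spread between the replicates (counts of peaks and of genes by less than 1.5 times), 7 moved further, and none reversed. For the signal ratios and the footprint density, a single replicate always lies closer to the mean than this spread. Leaving out a replicate could therefore not count as a move for them. With the longer lists the mean number of lncRNA promoter peaks was 1264, the genes with a peak in both replicates were 721, and the density fell to 8.36 footprints per kb. With replicate 2 shortened by signal to the length of replicate 1, the mean number was 524 and the density 12.3 per kb. Leaving out a replicate gave 509 to 1062 peaks, 448 to 901 genes, 10.9 to 11.5 footprints per kb, and log2 ratios of −0.79 to −0.43 over protein-coding promoter peaks and 0.26 to 0.41 over distal peaks; sharing then has no value. The share with a partner was 49.3% on average when 50% of both peaks had to overlap, against 70.0% in the main setting. This counted as less than the spread, which was 35.1 points for sharing. The number of peaks, the genes and the sharing in replicate 2 rest on list lengths that differ between the replicates, and the cause was not tested. No paired analysis was possible because the labels give 1 group only.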
